A study of Arabidopsis thaliana with 22 samples.

Results

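The transcriptome of wild-type Arabidopsis seedlings after 72 h of NaCl was compared with that of wild-type seedlings before treatment (0 h). The comparison uses 5 of the 22 RNA-seq libraries of the series, namely the 3 libraries labelled WT at 72 h and the 2 labelled WT at 0 h. The WT 72 h seedlings received 150 mM NaCl for 72 h, and the WT 0 h seedlings received no NaCl. Both are Col-0, the common laboratory strain, and the labels describe the seedlings as 10-day-old before and after treatment, so whether the 72 h seedlings were older when harvested is not stated. WT seedlings at 6 h and 24 h of the same treatment (3 libraries each) place the 72 h values in time. Seedlings of lrx345, a triple mutant of the cell wall proteins LRX3, LRX4 and LRX5, were sampled at 72 h (3 libraries) and 0 h (2 libraries) and show where the WT change differed between genotypes. All genes of the count table were considered, and 21831 of the 33602 had enough counts to be tested.

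No 72 h group grown without NaCl is among the libraries analysed here. The effect of salt, 72 h of further growth and any difference in the hour of harvest therefore cannot be told apart in these 5 libraries. The RNA came from seedlings, and markers of leaf and root cells were detected in each of the 5 libraries: none of the 33 nuclear photosynthesis genes, 12 root hair genes and 8 Casparian strip genes examined was at 0. In such bulk RNA, fewer cells of a type and less RNA per cell cannot be told apart.

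High NaCl limits water uptake and brings sodium ions into the plant. Within hours the hormone abscisic acid (ABA) accumulates, is bound by receptors of the PYR/PYL family, and releases SnRK2 kinases from inhibition by PP2C phosphatases. The kinases activate bZIP factors of the ABF family, which bind promoter motifs called ABRE and switch on genes for dehydrins, LEA proteins and enzymes of compatible solutes such as proline. Longer exposure also engages jasmonate signalling, leaf senescence and a slower cell cycle. The circadian clock runs through all of this, with CCA1 and LHY active around dawn and TOC1, LUX and their partners active towards the evening.

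The gene counts of a WT 72 h library summed to between 11882295 and 14869697 fragments, against 13107893 and 13757123 in the WT 0 h libraries. Replicates of a group differed by more than counting noise, with a chi-square per degree of freedom of 4.21 to 12.3 between pairs of WT 72 h libraries and 2.73 between the WT 0 h libraries, where counting noise alone gives 1. WT 72 h replicate 1 stood apart. It was the highest of the 3 WT 72 h libraries for 1420 (68%) of the 2089 genes that rose more than 2-fold, against 37.6% of all genes tested, and replicate 3 was the lowest for 1118 of them. Without replicate 1, 4894 genes were higher and 4557 lower at 72 h than at 0 h. For the osmotic, jasmonate, senescence and heat shock lists, and for the genes named whose value moved by more than 1.5 times or whose call was lost without a library, the values without that library are given beside the result. The genes called below rose or fell at an adjusted p under 0.05 in edgeR's quasi-likelihood test, and a fold change is given on the log2 scale with its standard error. Levels are in FPKM, which scale the fragments of a gene to its exon length and to the size of the library, and are listed for WT 72 h replicates 1, 2 and 3 and for the 2 WT 0 h libraries. The smallest p that an exact permutation test of 3 libraries against 2 can give is 0.2, so the tests rely on the spread shared over all 22 libraries.

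At 72 h, 5388 genes (24.7% of those tested) were higher and 5057 (23.2%) were lower than at 0 h. A change of more than 2-fold was found for 2089 higher genes (9.57%) and 1105 lower genes (5.06%). Nearly all called genes had groups that did not overlap: 5315 of the higher genes and 5036 of the lower genes, which is 24.3% and 23.1% of all genes tested. The median log2 fold change of all genes tested was 0.01.

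The 10 risen genes with the largest log2 fold changes, among genes with a mean count of at least 50 over the 5 libraries and no overlap between the groups, were genes with few or no counts at 0 h. sks8 (AT1G21850, chromosome 1, 7667803 to 7670530, TAIR10), a member of the SKU5-similar family of multicopper oxidase-like proteins, had 1428, 658 and 376 counts in the WT 72 h libraries and 0 counts in both WT 0 h libraries, and was at least 280-fold higher at 72 h against a floor of 3 counts per library. LTP4, a lipid transfer protein of the cell surface, had 339, 214 and 238 counts at 72 h and 0 at 0 h, at least 92-fold higher. EM1, an LEA protein best known from the dry seed, had 158, 66 and 60 counts at 72 h and 0 at 0 h, at least 32-fold higher. AT5G21960, annotated with the DNA-binding domain of the AP2/ERF family, was at least 34-fold higher, with 154, 92 and 51 counts at 72 h and 0 at 0 h. These 4 genes were thus undetected at this depth before treatment and present in each library at 72 h.

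RRTF1, a transcription factor induced by redox stress, had 996, 372 and 247 counts at 72 h and 1 count in each WT 0 h library, a ratio of 570 with a 95% counting interval of 158 to 4714. RRTF1 overlaps AT4G34412 in the annotation. The counting was without strand and left out fragments that fall on more than 1 gene, so the level of RRTF1 is uncertain. BHLH92, a bHLH factor induced by osmotic stress, had 1703, 660 and 384 counts at 72 h and 2 in each WT 0 h library, a ratio of 485 (189 to 1782). AT4G14368, annotated as an RCC1-family protein, had a ratio of 898 (161 to 35485) with 765, 317 and 189 counts at 72 h against 1 and 0 at 0 h. AT1G42980, a formin-like gene, had 609, 241 and 126 counts at 72 h against 3 and 0, a ratio of 229.8 (78.4 to 1116). In all 4, replicate 1 was the highest and replicate 3 the lowest of the WT 72 h libraries. Without replicate 1 the ratio was 350 for RRTF1, 295 for BHLH92, 572 for AT4G14368 and 138 for AT1G42980. Without the unnumbered WT 0 h library it was 444 for AT4G14368 and 114 for AT1G42980. Without WT 0 h replicate 1 no count was left at 0 h for these last genes, and against the floor AT4G14368 was at least 145-fold and AT1G42980 at least 111-fold higher. The intervals cover counting error only, not the spread between libraries.

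AOX1D encodes an alternative oxidase of the mitochondrial electron transport chain. Its level was 150.4, 58.4 and 35.6 FPKM at 72 h, against 0.376 and 0.157 FPKM at 0 h, and it rose by 8.22 ± 0.74 on the log2 scale (SE, adjusted p = 6.13e-09). The WT 72 h libraries differed more than 4-fold among themselves, yet the lowest lay far above both 0 h libraries. The log2 fold change of AOX1D was 7.42 without WT 72 h replicate 1 and 8.95 without WT 0 h replicate 1. NATA1, an acetyltransferase that acts on ornithine and is known from the jasmonate response, was at 365, 196 and 187 FPKM at 72 h against 1.18 and 1.22 FPKM at 0 h, a log2 fold change of 7.69 ± 0.36 (adjusted p = 1.38e-13). Both genes were also higher at 72 h than at 24 h, by 5.05 (adjusted p = 1.38e-08) for AOX1D and 5.59 (adjusted p = 3.01e-13) for NATA1.

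The 10 fallen genes chosen in the same way include clock-linked genes and root transporters. AT1G73120, annotated as an F-box protein, was at 0.814, 1.01 and 0.676 FPKM at 72 h against 68.3 and 68.6 FPKM at 0 h, a log2 fold change of -6.33 ± 0.29 (adjusted p = 1.21e-13). AT1G07050, a protein with the CCT motif shared with CONSTANS, fell by 5.42 ± 0.31 (adjusted p = 4.99e-12), with 0.16, 0.599 and 0.28 FPKM at 72 h against 15.9 and 13.6 FPKM at 0 h. JMJD5, a jumonji-domain protein that cycles with the clock, was at 3.29, 4.04 and 3.08 FPKM against 33.4 and 33.6 FPKM (log2 fold change -3.27 ± 0.13, adjusted p = 8.69e-15). GRP7, an RNA-binding protein under clock control, was at 328, 255 and 229 FPKM at 72 h against 2210.0 and 2214 FPKM at 0 h (-3.03 ± 0.17, adjusted p = 4.43e-12). For these 4 genes the groups did not overlap. The WT 72 h libraries of AT1G07050 spread the most in ratio, and without replicate 2 its log2 fold change was -6.02.

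GPT2, the plastid glucose-6-phosphate/phosphate translocator, was at 7.83, 4.61 and 5.25 FPKM at 72 h against 75.6 and 101.8 FPKM at 0 h, a log2 fold change of -3.90 ± 0.17 (adjusted p = 8.76e-14). At 24 h it stood 0.41 above the 0 h level, so the fall lay between 24 h and 72 h (-4.30, adjusted p = 2.05e-14). IRT1, the main iron transporter of the root surface, was at 1.44, 1.23 and 1.78 FPKM at 72 h against 22.9 and 21 FPKM at 0 h. ALMT1, a root malate channel, was at 0.895, 0.902 and 0.793 FPKM against 6.88 and 8.02 FPKM. GSTF14, a phi-class glutathione transferase (-3.64), AT5G62360, a pectin methylesterase inhibitor-like protein (-3.05), and RbcX1, a Rubisco assembly chaperone (-2.99), complete the 10. RbcX1 overlaps AT4G04320 in the annotation.

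**Figure D1:**
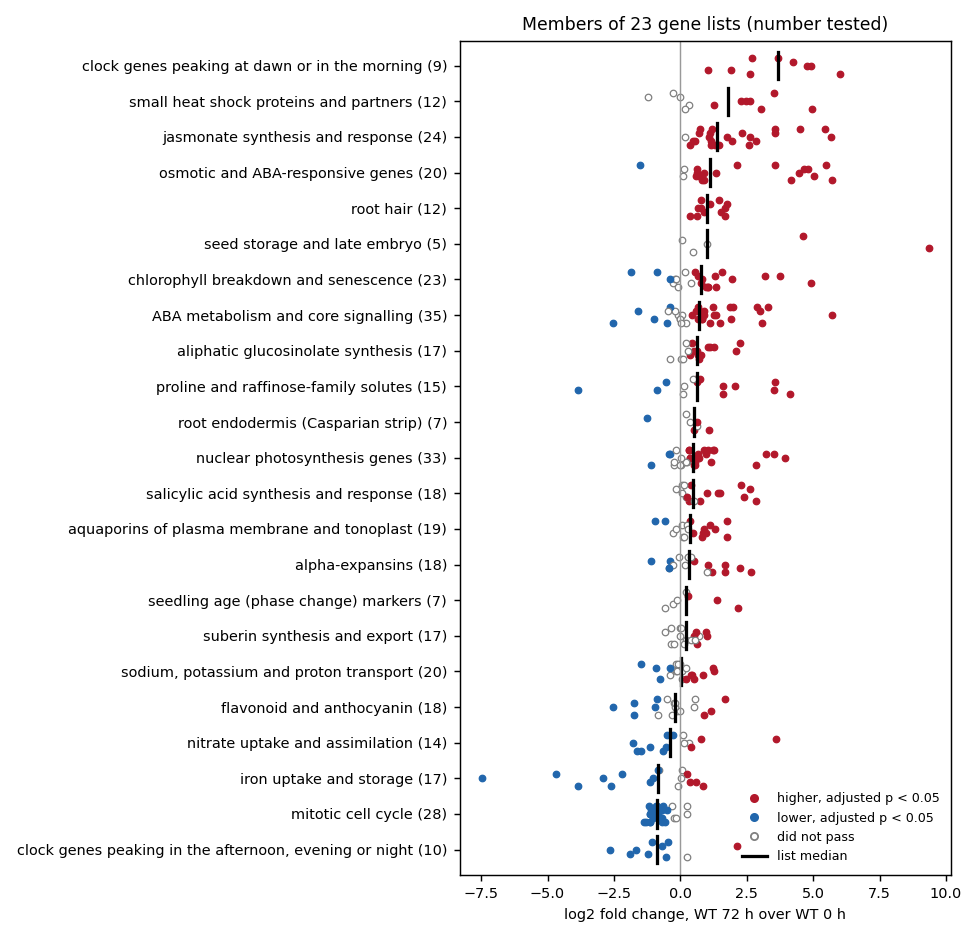
Log2 fold change (WT 72 h over WT 0 h, x axis) of each tested member of 23 gene lists (rows, with the number tested), with filled points for an adjusted p under 0.05, open points for members that did not pass, and a black bar at the list median. Morning clock genes lie furthest to the right with a median of 3.66, and mitotic genes (-0.86) and afternoon and evening clock genes (-0.86) lie to the left; points of genes with 0 counts in a group are fitted values, not bounds.

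The genes that mark an osmotic or ABA response were still raised at 72 h, but mostly far below their 6 h level. Of 20 tested members, 17 rose, 1 fell and 2 did not pass, where 24.7% of all genes tested rose and 23.2% fell, with a median log2 fold change of 1.13 over the list against 0.01 over all genes. RD20, a caleosin of lipid droplets, was at 37.3, 31 and 31.4 FPKM at 72 h against 0.672 and 0.584 FPKM at 0 h (log2 fold change 5.70 ± 0.34, adjusted p = 6.37e-12). RD26, a NAC factor of the ABA pathway, was at 21.3, 16.5 and 16.7 FPKM against 3.89 and 4.34 FPKM (2.15 ± 0.15, adjusted p = 8.98e-11). The dehydrin RAB18 had 141, 149 and 104 counts at 72 h against 4 and 2 at 0 h, a ratio of 46.4 (95% counting interval 21.1 to 127). LEA4-5, a small LEA protein, had 140, 88 and 63 counts against 4 and 2, a ratio of 34.3 (15.5 to 94.1). In these 4 genes each WT 72 h library exceeded both WT 0 h libraries many-fold.

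RD29A and RD29B are neighbouring genes widely used as reporters of osmotic stress and ABA. RD29B was at 4.29, 3.82 and 2.18 FPKM at 72 h against 0.235 and 0.0658 FPKM at 0 h, a log2 fold change of 4.48 ± 0.59 (adjusted p = 1.56e-06), which was 5.61 without WT 0 h replicate 1 and 3.84 without the unnumbered WT 0 h library. RD29A was at 68.6, 65.1 and 58.6 FPKM at 72 h against 34 and 35.7 FPKM at 0 h (0.88 ± 0.21, adjusted p = 0.00115). Both had been higher earlier: the log2 fold change over 0 h was 10.34 at 6 h and 6.13 at 24 h for RD29B, and 5.59 at 6 h and 1.76 at 24 h for RD29A. At 72 h RD29B was lower than at 24 h by 1.65 on the log2 scale (adjusted p = 1.95e-05) and RD29A by 0.88 (adjusted p = 0.000394). The cold- and drought-responsive KIN1 was at 141.9, 84.6 and 57.7 FPKM at 72 h against 3.92 and 6.65 FPKM at 0 h, but it is nearly identical to its neighbour KIN2, and how the fragments were divided between them is uncertain. COR15A and COR15B, chloroplast proteins induced by cold and drought, were back near their starting level, with log2 fold changes of 0.11 (adjusted p = 0.877) and 0.14 (adjusted p = 0.665). COR413-TM1, a chloroplast membrane protein, fell to 8.45, 6.41 and 8.72 FPKM at 72 h, against 22.2 and 23.501 FPKM at 0 h (-1.53 ± 0.19, adjusted p = 6.31e-07). WT 72 h replicate 1 was the highest of the 3 for 14 of the 20 members. Without it, 16 rose and 1 fell, and the list median was 0.96.

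The promoter of RD29B is shown because it carries the motif that ABA-activated bZIP factors bind. The 250 bases before the annotated start of the gene (chromosome 5, 21236806 to 21237055, plus strand, TAIR10) hold 3 matches to the ABRE motif ACGTGNC on either strand, printed in capitals, which begin 98, 73 and 45 bases before the start.
RD29B: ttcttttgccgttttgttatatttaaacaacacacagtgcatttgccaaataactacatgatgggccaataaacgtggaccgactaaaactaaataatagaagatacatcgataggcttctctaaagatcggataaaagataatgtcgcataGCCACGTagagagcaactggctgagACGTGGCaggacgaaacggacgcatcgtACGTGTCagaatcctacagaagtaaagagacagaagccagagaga
Among the 20 osmotic and ABA-responsive genes, 11 (55%) had an ABRE match in this window, and 13 (65%) had a match to the DRE motif (ACCGAC or GCCGAC). Of the promoters of all genes tested, 11.6% held an ABRE and 8.19% held a DRE match.

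Of 35 tested genes of ABA metabolism and signalling, 22 rose, 5 fell and 8 did not pass, where 24.7% of all genes tested rose and 23.2% fell. All 5 that fell were receptors of the PYR/PYL family, which bind ABA. PYR1 fell to 35.7, 32.1 and 36.3 FPKM at 72 h, against 109 and 103 FPKM at 0 h (-1.61 ± 0.16, adjusted p = 2.78e-08), and PYL6 to 3.18, 2.95 and 3.34 FPKM, against 16.8 and 19.5 FPKM (-2.52 ± 0.17, adjusted p = 6.91e-11). PYL4 fell by 0.99, PYL1 by 0.51 and PYL8 by 0.38 on the log2 scale, and PYL1 did not pass without WT 0 h replicate 1 (adjusted p = 0.0929). PYL7 rose instead, by 1.27 (adjusted p = 5.5e-07), and overlaps AT4G01030 in the annotation. PYL2, PYL5 and PYL9 did not pass, with log2 fold changes of 0.08, -0.19 and 0.00.

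The PP2C phosphatases, which hold the SnRK2 kinases inactive and are themselves induced by ABA, rose in each case tested. HAI1 was at 7.2, 5.7 and 5.38 FPKM at 72 h against 0.704 and 0.731 FPKM at 0 h (3.08 ± 0.26, adjusted p = 2.98e-09). HAI2 had 49, 26 and 21 counts against 0 and 1, a ratio of 67.8 (95% counting interval 11.9 to 2706). The ratio of HAI2 was 34.3 without WT 0 h replicate 1, and at least 10-fold against the floor without the unnumbered WT 0 h library. HAI3 had 37, 25 and 11 counts against 3 and 2, a ratio of 10.3 (4.22 to 32.7). ABI1 was at 59.3, 53.9 and 56.3 FPKM against 26 and 25.7 FPKM (1.13 ± 0.10, adjusted p = 5.28e-09), and ABI2, HAB1, HAB2 and AHG3 rose by 1.35, 1.23, 0.83 and 0.89. Of the kinases, SRK2C rose by 1.98 (adjusted p = 1.67e-08) and SRK2E, known as OST1, by 0.70 (adjusted p = 7.65e-06), while SRK2D and SRK2I had log2 fold changes of -0.03 and 0.01. The ABF factors rose modestly, with 0.68 for ABF4, 0.67 for ABF3 and 0.45 for ABF2.

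Among the genes that rose were enzymes that make or release ABA and others that degrade it. ABA1, zeaxanthin epoxidase, was at 67.5, 79.1 and 80.1 FPKM at 72 h against 19.9 and 21.8 FPKM at 0 h (1.86 ± 0.13, adjusted p = 1.66e-10). BG1, a glucosidase that frees ABA from its glucose ester, was at 267, 292 and 197 FPKM against 35.8 and 26.8 FPKM (3.01 ± 0.19, adjusted p = 1.69e-11). NCED3, the dioxygenase of the committed step, was near its starting level, with 1.07, 1.98 and 1.41 FPKM at 72 h against 1.43 and 1.09 FPKM at 0 h (0.21 ± 0.30, adjusted p = 0.586). Its log2 fold change over 0 h had been 4.43 at 6 h and 1.45 at 24 h. The ABA 8'-hydroxylases CYP707A3, CYP707A4 and CYP707A1, which break ABA down, rose by 2.88, 1.90 and 1.49.

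Of 20 tested genes of sodium, potassium and proton transport 7 rose, 4 fell and 9 did not pass, where 24.7% of all genes tested rose and 23.2% fell, and the list median was 0.03. The vacuolar sodium or potassium/proton exchanger NHX2 was at 7.96, 11.2 and 9.79 FPKM at 72 h against 4.2 and 3.79 FPKM at 0 h (1.27 ± 0.15, adjusted p = 3.79e-07). SOS1, the plasma membrane sodium exporter, rose by 0.51 ± 0.09 (adjusted p = 6.58e-05), and GORK, a guard cell potassium channel, by 1.23 ± 0.15 (adjusted p = 4.09e-07). HKT1, which retrieves sodium from the xylem, was at 1.52, 1.09 and 2.39 FPKM at 72 h against 3.11 and 3.16 FPKM at 0 h (-0.91 ± 0.29, adjusted p = 0.0139). Without either WT 0 h library, or without WT 72 h replicate 2, HKT1 no longer passed, with adjusted p of up to 0.0711. Without the unnumbered WT 0 h library or WT 72 h replicate 2, 2 genes of the list fell instead of 4. SKOR, a channel that loads potassium into the xylem, fell by 1.47 ± 0.26 (adjusted p = 8.06e-05). SOS2 and SOS3, the kinase and calcium sensor that activate SOS1, had log2 fold changes of 0.06 and 0.00.

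Genes of both steps of proline synthesis rose, while the breakdown enzymes parted. P5CS1, the rate-limiting enzyme of proline synthesis, was at 151, 161 and 143 FPKM at 72 h against 9.98 and 7.23 FPKM at 0 h (4.14 ± 0.15, adjusted p = 3.28e-15). It overlaps AT2G39795 in the annotation. P5CS2 rose by 1.59 ± 0.09 (adjusted p = 5.2e-12) and P5CR, the next enzyme, by 0.60 ± 0.09 (adjusted p = 8.82e-06). ProDH1, the mitochondrial proline dehydrogenase, fell to 69.4, 53.6 and 57.3 FPKM at 72 h, against 112 and 108 FPKM at 0 h (-0.88 ± 0.13, adjusted p = 7.16e-06). P5CDH, the next enzyme of breakdown, rose by 0.62 ± 0.10 (adjusted p = 1.46e-05), and overlaps AT5G62520 in the annotation. P5CS1 stood 1.39 above its 24 h level (adjusted p = 2.7e-09), after a log2 fold change over 0 h of 5.07 at 6 h and 2.75 at 24 h. The galactinol synthases, which start the raffinose family of sugars, rose too: GolS1 by 3.54 ± 0.16 (adjusted p = 9.89e-14), GolS2 by 3.58, GolS4 by 2.05 and GolS3 by 1.60. Without the unnumbered WT 0 h library GolS4 stood at 2.91, and GolS3 did not pass (1.23, adjusted p = 0.122). RS4, a stachyose synthase, had 3, 3 and 2 counts at 72 h against 34 and 51 at 0 h, a ratio of 0.0665 (95% counting interval 0.0278 to 0.137). Over the list, 9 of 15 members rose and 3 fell, where 24.7% of all genes tested rose and 23.2% fell.

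Jasmonate genes rose almost throughout. Of 24 tested members 23 rose and none fell, where 24.7% of all genes tested rose and 23.2% fell. The median log2 fold change was 1.39, and 18 members rose more than 2-fold, as did 9.57% of all genes tested. The JAZ proteins repress jasmonate responses and are induced by the hormone. JAZ7 was at 76.9, 34.5 and 16.6 FPKM at 72 h against 0.53 and 1.14 FPKM at 0 h (5.66 ± 0.64, adjusted p = 2.06e-07). JAZ8 had 172, 69 and 28 counts against 2 and 2, a ratio of 47.5 (95% counting interval 18.3 to 176). JAZ10 was at 30.6, 16.4 and 12.8 FPKM against 1.94 and 1.49 FPKM (3.55 ± 0.32, adjusted p = 5.27e-09). In each of the 3 the order of the WT 72 h libraries was the same, with replicate 1 highest, and no library overlapped with 0 h. Without replicate 1 the log2 fold change of JAZ7 was 4.90 and the ratio of JAZ8 was 27.4, and without the unnumbered WT 0 h library JAZ7 stood at 6.30. The other JAZ genes tested rose by 1.14 (JAZ6) to 2.33 (JAZ5, 1.69 without replicate 1).

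Among the enzymes of jasmonate synthesis, the lipoxygenase LOX2 was at 694, 625 and 650 FPKM at 72 h against 111.8 and 109 FPKM at 0 h (2.57 ± 0.14, adjusted p = 2.63e-12). LOX4 and LOX3 rose by 3.55 ± 0.33 and 2.61 ± 0.28, OPR3, which acts in the peroxisome, by 1.13 ± 0.17, and AOS, allene oxide synthase, by 0.69 ± 0.14. AOC2, an allene oxide cyclase, was the only member that did not pass (0.19, adjusted p = 0.427), and AOC1 rose by 1.3. Because these cyclases are nearly identical in sequence, the division of fragments between them is uncertain. MYC2, the master factor of the pathway, was at 80.9, 65.4 and 56.4 FPKM against 26 and 22.7 FPKM (1.47 ± 0.18, adjusted p = 7.53e-07). The storage protein VSP2, a classical jasmonate marker of leaves, was at 53.7, 42.9 and 28.9 FPKM against 2.19 and 1.49 FPKM (4.51 ± 0.33, adjusted p = 1.82e-10). The defensin PDF1.2a was at 16, 7.4 and 2.3 FPKM against 1.48 and 0.962 FPKM (2.84 ± 0.80, adjusted p = 0.00515). PDF1.2a did not pass without WT 72 h replicate 1 (1.95, adjusted p = 0.0648) or without the unnumbered WT 0 h library (2.57, adjusted p = 0.0537).

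WT 72 h replicate 1 was the highest of the 3 WT 72 h libraries for 23 of the 24 jasmonate genes. The median log2 ratio to the mean of 0 h was 1.67 in replicate 1, 1.32 in replicate 2 and 1.03 in replicate 3. Without replicate 1, 22 of the 24 genes rose, 13 of them more than 2-fold, and the median was 1.22. What set replicate 1 apart was not tested. The median over 0 h had been 0.82 at 6 h and 0.36 at 24 h. At 72 h, 18 of the 24 genes were higher than at 6 h, where 22.1% of all genes tested were higher, and 22 were higher than at 24 h, where 20.7% were. At 72 h JAZ7 stood above its 24 h level by 3.98 (adjusted p = 4.49e-07).

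**Figure D2:**
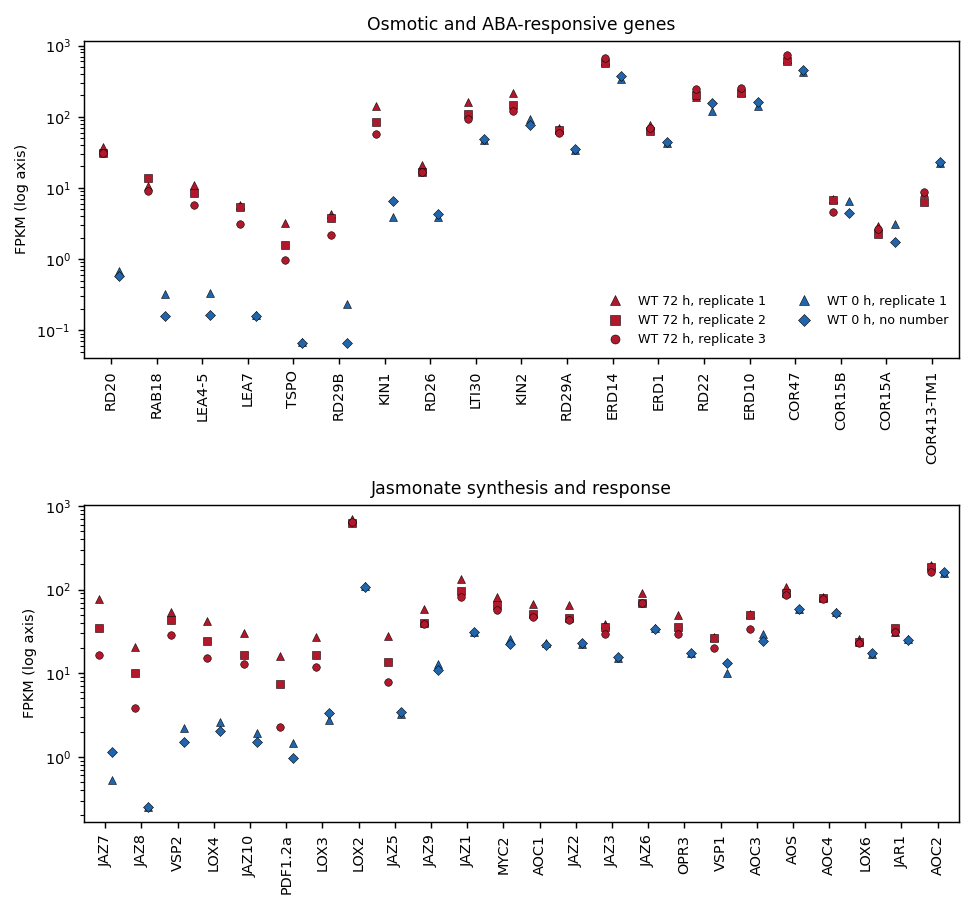
FPKM (log axis) of osmotic and ABA-responsive genes (upper panel, 19 genes with counts in each library) and of 24 jasmonate genes (lower panel), each point being 1 library, red for WT 72 h (left of each pair) and blue for WT 0 h. WT 72 h replicate 1 (red triangles) is the highest red point for 23 of the 24 jasmonate genes, and COR413-TM1 is the osmotic gene with all red points below the blue.

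The G-box CACGTG is bound by MYC2 and by other bHLH and bZIP factors, and a JAZ promoter is shown for it. The 250 bases before JAZ8 (chromosome 1, 10596242 to 10596491, plus strand, TAIR10) hold 1 match, in capitals, which begins 150 bases before the annotated start.
JAZ8: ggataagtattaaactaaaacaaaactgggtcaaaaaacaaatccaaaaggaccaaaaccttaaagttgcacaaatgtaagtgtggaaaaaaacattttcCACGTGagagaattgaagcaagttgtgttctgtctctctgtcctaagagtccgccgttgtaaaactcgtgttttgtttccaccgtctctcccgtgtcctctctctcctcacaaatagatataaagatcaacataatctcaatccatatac
A G-box match was found in 10 of the 24 jasmonate promoters (41.7%), against 8.72% of the promoters of all genes tested. Among them were JAZ1, JAZ2, JAZ3, JAZ7, JAZ8 and JAZ9, while JAZ5, JAZ6 and JAZ10 had none in this window. A G-box followed by the bases of an ABRE is counted under both motifs.

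Salicylic acid genes rose in part. Of 18 tested members 11 rose and none fell, with a median of 0.46, where 24.7% of all genes tested rose and 23.2% fell. Without WT 72 h replicate 2, 8 rose and the median was 0.39. The regulator CBP60g was at 33.1, 19.5 and 15.4 FPKM at 72 h against 2.81 and 3.55 FPKM at 0 h (2.84 ± 0.37, adjusted p = 1.69e-06). The pathogenesis-related genes PR2 and PR1, markers of the response, rose by 2.64 ± 0.24 and 2.41 ± 0.38. PR1 was at 26.7, 50.1 and 33.1 FPKM against 3.31 and 10.3 FPKM, so that the WT 0 h libraries lay further apart in ratio than the WT 72 h libraries, without overlap between the groups. Its log2 fold change was 1.82 without WT 0 h replicate 1 and 3.46 without the unnumbered WT 0 h library. ICS1, the main enzyme of synthesis, had a log2 fold change of 0.32 ± 0.12 (adjusted p = 0.0353) and did not pass when any 1 of the 5 libraries was left out (adjusted p of up to 0.223), and EDS1, an upstream regulator, had a log2 fold change of -0.01 (adjusted p = 0.98).

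Of 23 tested genes of chlorophyll breakdown and leaf senescence, 14 rose and 3 fell, with a median of 0.76, where 24.7% of all genes tested rose and 23.2% fell. WT 72 h replicate 1 was the highest of the 3 for 16 of the 23. Without it 13 rose, 4 fell and the median was 0.68, and 7 rose more than 2-fold instead of 9. NAP, a NAC factor that drives senescence, was at 30.8, 20 and 23.1 FPKM at 72 h against 1.57 and 2.11 FPKM at 0 h (3.74 ± 0.26, adjusted p = 1.08e-10). SAG13, an early marker, was at 25.6, 11.1 and 10.6 FPKM against 0.42 and 0.616 FPKM (4.92 ± 0.52, adjusted p = 7.26e-08), and SAG14, a copper-binding protein of the cell surface, at 239, 116 and 81.3 FPKM against 14.7 and 17.624 FPKM (3.17 ± 0.30, adjusted p = 1.18e-08). Genes of chlorophyll breakdown moved in both directions. SGR1 and SGR2, which extract magnesium from chlorophyll, rose by 1.34 and 1.95, and PAO and PPH by 1.04 and 0.68. NYC1, the chlorophyll b reductase, fell by 0.89 and HCAR, the next enzyme of the chlorophyll b to a conversion, fell to 5.64, 7.18 and 7.05 FPKM at 72 h, against 24.6 and 22.9 FPKM at 0 h (-1.85 ± 0.11, adjusted p = 1.08e-11). SAG21 and SEN1, also used as senescence markers, had log2 fold changes of -0.09 and 0.18 and did not pass.

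Nuclear photosynthesis genes mostly rose. Of 33 tested members 21 rose and 3 fell, with a median of 0.47, where 24.7% of all genes tested rose and 23.2% fell. The summed level of the 33 was 46277, 52406 and 48951 FPKM at 72 h against 36223 and 35750 FPKM at 0 h. The light-harvesting genes LHCB2.1, LHCB2.2 and LHCB2.3 rose by 3.52 ± 0.14, 2.85 ± 0.15 and 3.95 ± 0.19. LHCB2.3 was at 396, 403 and 329 FPKM against 25.344 and 23.2 FPKM (adjusted p = 2.51e-13). The LHCB1 and LHCB2 genes are near-identical copies, so the level of single copies is uncertain. LHCA4, of photosystem I, rose by 1.17 ± 0.12 (adjusted p = 6.38e-08) and RCA, Rubisco activase, by 0.91 ± 0.10 (adjusted p = 2.04e-07). RBCS2B, a small subunit of Rubisco, fell to 507, 545 and 551 FPKM at 72 h, against 1136 and 1186 FPKM at 0 h (-1.12 ± 0.12, adjusted p = 1.18e-07), with the same limit for its near-identical copies. The LHCB2 genes stood at log2 fold changes of 3.07 to 3.78 over 0 h already at 24 h.

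Clock genes were separated widely between the groups. All 9 tested genes that peak at dawn or in the morning rose more than 2-fold, as did 9.57% of all genes tested. Their median log2 fold change was 3.66. CCA1 was at 90, 96.5 and 97 FPKM at 72 h against 1.38 and 1.56 FPKM at 0 h (6.00 ± 0.15, adjusted p = 3.28e-18), and LHY, its close relative, at 84, 96.4 and 99.6 FPKM against 2.93 and 3.23 FPKM (4.92 ± 0.13, adjusted p = 3.28e-18). LNK2, a coactivator that works with the RVE factors, was at 114, 127 and 117 FPKM against 4.9 and 3.88 FPKM (4.77 ± 0.15, adjusted p = 1.41e-16). RVE8, which activates evening genes, rose by 4.25 ± 0.14, RVE1 by 3.66 ± 0.18, LNK1 by 2.62 ± 0.13 and RVE4 by 1.90 ± 0.13. PRR9 and PRR7, repressors that follow CCA1 in the day, rose by 2.68 ± 0.35 (3.27 without WT 0 h replicate 1) and 1.03 ± 0.09.

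Of 10 tested genes listed as peaking in the afternoon, evening or night, 8 fell, 1 rose and 1 did not pass. Over all genes tested 23.2% fell and 24.7% rose. In 1 of the 8 (BOA) the groups overlapped. PRR3 fell to 2.85, 3.18 and 3.15 FPKM at 72 h, against 19.2 and 19.1 FPKM at 0 h (-2.65 ± 0.13, adjusted p = 5.07e-13). LUX, a DNA-binding member of the evening complex, fell to 13.2, 11.2 and 13.7 FPKM, against 41.1 and 39.8 FPKM (-1.67 ± 0.12, adjusted p = 9.89e-11). Its partners ELF3 and ELF4 fell by 0.68 ± 0.09 and 0.55 ± 0.19. ELF4 did not pass without WT 0 h replicate 1 or WT 72 h replicate 1 (adjusted p of up to 0.241), and BOA did not pass without WT 0 h replicate 1, WT 72 h replicate 2 or WT 72 h replicate 3 (adjusted p of up to 0.813). FKF1, a blue-light receptor of flowering time, fell by 1.90 ± 0.20, GI, its partner, by 1.2 ± 0.10, and TOC1 by 1.05 ± 0.07. CDF1, a repressor of flowering that FKF1 and GI target, rose by 2.15 ± 0.15 (adjusted p = 1.57e-10). It stands in this list with its partners, but its transcript is known to peak around dawn.

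The 24 h libraries, but not the 6 h libraries, showed the same opposition in the medians. The median log2 fold change over 0 h of the morning genes was 0.58 at 6 h and 3.30 at 24 h, and that of the afternoon and evening genes was 0.57 at 6 h and -1.23 at 24 h. CCA1 was at 3.8, 2.99 and 4.24 FPKM at 6 h and at 72.5, 79.6 and 66.9 FPKM at 24 h. PRR3 was at 18.8, 15.9 and 17.3 FPKM at 6 h and at 4.27, 4.87 and 5.21 FPKM at 24 h. At 72 h, 5 of the 9 morning genes were higher and 3 lower than at 24 h, and 5 of the 10 genes of the afternoon and evening list, CDF1 included, were higher and 5 lower. The hour of harvest is not given in the sources used here, and its part in these results cannot be told apart from that of salt.

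**Figure D3:**
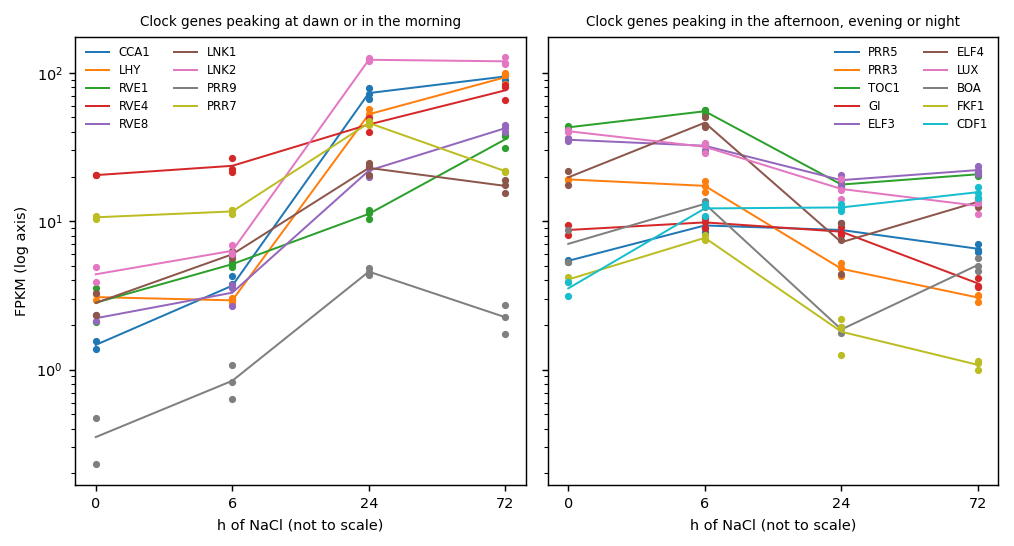
FPKM (log axis) of 9 clock genes that peak at dawn or in the morning (left) and 10 listed as peaking in the afternoon, evening or night (right, with CDF1, known to peak around dawn) in WT libraries at 0, 6, 24 and 72 h of NaCl, with a point for each library and lines through the group means. CCA1 lies between 66.9 and 97 FPKM at 24 h and 72 h and under 5 FPKM at 0 h and 6 h, while PRR3 shows the opposite course.

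The evening element AAAATATCT is bound by CCA1, LHY and the RVE factors, and the promoters of LUX and FKF1 are shown as examples of genes that fell and carry it. The windows cover the 250 bases before the annotated start on chromosome 3 (17182820 to 17183069) for LUX and on chromosome 1 (25508426 to 25508675) for FKF1, both on the plus strand of TAIR10, with matches on either strand in capitals.
LUX: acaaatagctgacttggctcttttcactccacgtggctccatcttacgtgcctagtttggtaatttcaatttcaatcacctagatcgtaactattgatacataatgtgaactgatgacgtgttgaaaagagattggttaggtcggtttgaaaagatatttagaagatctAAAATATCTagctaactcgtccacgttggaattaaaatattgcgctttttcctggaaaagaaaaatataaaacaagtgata
FKF1: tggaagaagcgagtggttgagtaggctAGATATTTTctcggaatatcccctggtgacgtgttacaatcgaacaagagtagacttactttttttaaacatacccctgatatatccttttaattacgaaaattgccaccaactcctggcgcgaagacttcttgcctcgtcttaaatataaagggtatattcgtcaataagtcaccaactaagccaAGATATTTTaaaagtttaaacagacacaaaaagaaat
The match in LUX begins 81 bases before the start, and those in FKF1 begin 223 and 37 bases before it. The element was found in 3 of the 10 afternoon and evening clock promoters and in 51 (4.7%) of the 1086 promoters of genes that fell more than 2-fold, against 36 (1.73%) of the 2079 promoters of genes that rose more than 2-fold and 2.28% of all genes tested.

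ABRE, G-box, W-box and heat shock element were more common among the risen genes than among all genes tested, and the DRE was not. An ABRE was found in 362 of the 2079 promoters of genes that rose more than 2-fold, in 103 of the 1086 promoters (9.48%) of genes that fell more than 2-fold and in 11.6% of all tested, and a G-box in 13.8%, 6.08% and 8.72%. The W-box (TTGACC or TTGACT), bound by WRKY factors, was found in 35.3% of risen, 24.4% of fallen and 29.4% of all promoters, and the heat shock element GAANNTTC in 13.6%, 8.29% and 9.87%. The DRE was found in 7.5%, 6.63% and 8.19%. A match is a run of letters in a window of 250 bases and does not show that a factor is bound.

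Several small heat shock proteins were raised at low levels. Their list also holds the partners HSFA2, HSP101, HSP90.1, HSP70T-2 and BIP3. Of its 17 symbols, 12 had an identifier, and all 12 were tested. Of these 12, 7 rose and none fell, where 24.7% of all genes tested rose and 23.2% fell. The median log2 fold change was 1.78 as fitted and 0.95 with genes at 0 counts in a group at their bounds. Without WT 72 h replicate 1, 6 rose and the fitted median was 1.39. HSP17.6A was at 5.5, 4.74 and 3.57 FPKM at 72 h against 1.02 and 0.445 FPKM at 0 h (2.64 ± 0.51, adjusted p = 0.000179), and HSP17.4 at 4.61, 2.64 and 2.57 FPKM against 0.694 and 0.097 FPKM (3.04 ± 0.50, adjusted p = 2.53e-05). Without WT 0 h replicate 1 the log2 fold change was 3.33 for HSP17.6A and 4.90 for HSP17.4, and without the unnumbered WT 0 h library it was 2.24 for HSP17.4. HSFA2, a heat shock factor, rose by 1.26 ± 0.26 (adjusted p = 0.000326). The large chaperones HSP101 and HSP90.1 had log2 fold changes of -0.27 and -0.03 and did not pass.

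Several iron uptake genes fell, as did factors that control them. Of 17 tested genes 9 fell, 4 rose and 4 did not pass, where 23.2% of all genes tested fell and 24.7% rose. The list median was -0.85. BHLH100, a factor of the group that switches on iron uptake, had 0 counts in each WT 72 h library against 32 and 21 counts at 0 h, at least 8-fold lower at 72 h against a floor of 3 counts per library. BHLH38 had 0, 1 and 1 counts against 23 and 21, a ratio of 0.0321 (95% counting interval 0.00377 to 0.123), and BHLH39 fell by 2.60 ± 0.42 (adjusted p = 1.96e-05). FIT, their partner, fell by 1.15 ± 0.26 (adjusted p = 0.000884). Of the root machinery they activate, IRT1 fell by 3.87 ± 0.35 (adjusted p = 7.53e-09), and FRO2, the ferric reductase, fell to 0.693, 0.794 and 0.612 FPKM at 72 h, against 5.27 and 5.27 FPKM at 0 h (-2.91 ± 0.30, adjusted p = 4.2e-08). Of the ferritins, which store iron, FER1 rose by 0.87 ± 0.16, while FER3 and FER4 fell by 1.04 ± 0.13 and 0.85 ± 0.12. Leaving out a WT 0 h library, WT 72 h replicate 2 or WT 72 h replicate 3 lowered the count of risen iron genes to 1 or 2. IRT1 and FRO2 had reached this level by 6 h, with log2 fold changes over 0 h of -3.87 and -2.71.

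Of 14 tested genes of nitrate uptake and assimilation, 8 fell and 3 rose, where 23.2% of all genes tested fell and 24.7% rose. NIR1, nitrite reductase, fell to 92.3, 119 and 127 FPKM at 72 h, against 327 and 367 FPKM at 0 h (-1.62 ± 0.11, adjusted p = 6.55e-11), and UPM1, which makes the sirohaem of that enzyme, fell by 1.8 ± 0.08 (adjusted p = 1.36e-13). The nitrate reductases parted: NIA1 fell by 1.15 ± 0.12 and NIA2 rose by 0.76 ± 0.11. The asparagine synthetases parted too. ASN1 was at 89.3, 91.3 and 72.4 FPKM at 72 h against 8.18 and 5.65 FPKM at 0 h (3.61 ± 0.21, adjusted p = 6.61e-12), whereas ASN2 fell by 1.48 ± 0.11 (adjusted p = 4.2e-10).

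Mitotic genes fell as a group by moderate amounts. Of 28 tested members 23 fell and none rose, where 23.2% of all genes tested fell and 24.7% rose. The list median was -0.86, and 11 fell more than 2-fold, as did 5.06% of all genes tested. The cyclin CYCA1;1 fell to 2.56, 4.42 and 3.07 FPKM at 72 h, against 8.83 and 8.16 FPKM at 0 h (-1.35 ± 0.20, adjusted p = 8.09e-06). CDC20.1, an activator of the anaphase-promoting complex, fell to 8.19, 10.2 and 9.22 FPKM, against 24.1 and 21.1 FPKM (-1.3 ± 0.18, adjusted p = 4.58e-06). The B-type cyclin CYCB1;2 fell by 1.15 ± 0.10, the cytokinesis kinesin HINKEL by 1.16 ± 0.13, the Aurora kinase AUR2 by 1.18 ± 0.18 and KNOLLE, a syntaxin of the cell plate, by 0.99 ± 0.12. WT 72 h replicate 2 was the highest of the 3 for 23 of the 28 genes, and its values still lay below both WT 0 h libraries for all 23 genes that fell. Medians over 0 h of -0.59 at 6 h and -0.51 at 24 h preceded the 72 h value, and 13 of the 28 genes were lower at 72 h than at 24 h, where 19.6% of all genes tested were lower.

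**Figure D4:**
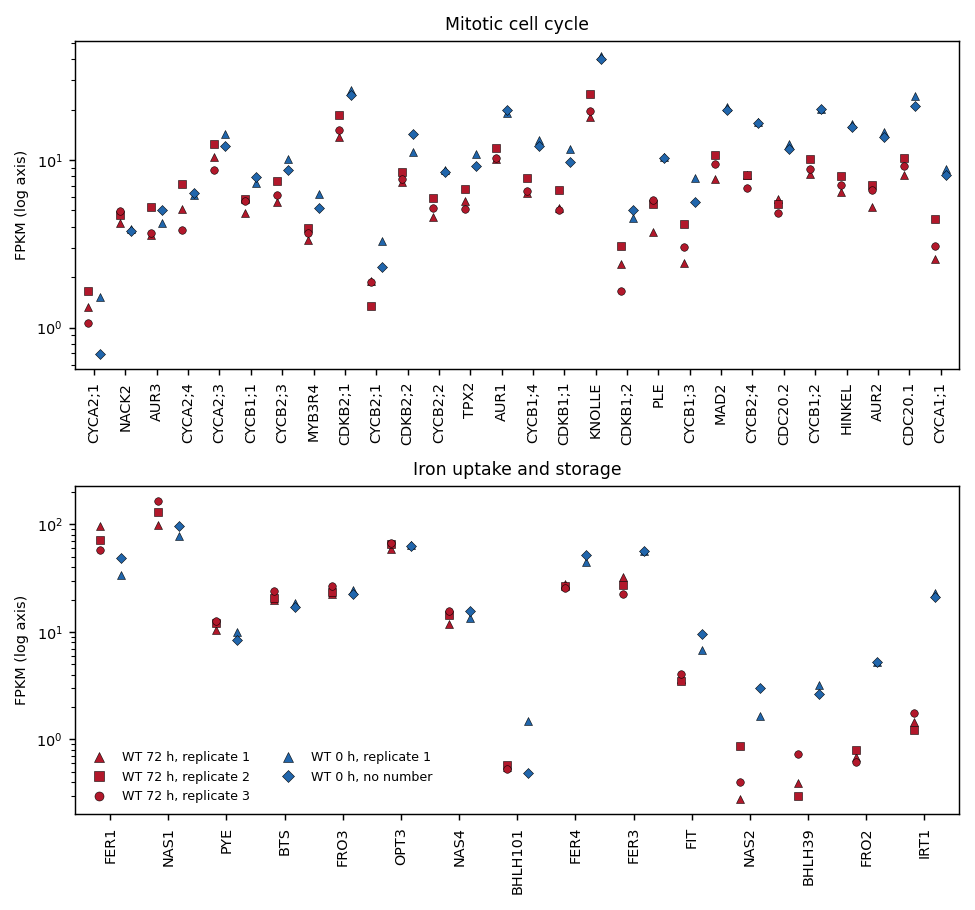
FPKM (log axis) of 28 mitotic genes (upper panel) and 15 iron genes with counts in each library (lower panel), each point being 1 library, red for WT 72 h (left of each pair) and blue for WT 0 h. Red points lie below blue for the 23 mitotic genes that fell, and for IRT1 the WT 72 h libraries sit at 1.23 to 1.78 FPKM against 21 and 22.9 FPKM at 0 h.

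Among the genes of flavonoid and anthocyanin synthesis, the flavonol regulator MYB111 fell to 1.12, 1.97 and 2.2 FPKM at 72 h, against 9.54 and 10.7 FPKM at 0 h (-2.54 ± 0.25, adjusted p = 2.13e-08). CHS, which opens the pathway, fell by 1.74 ± 0.17 (adjusted p = 2.46e-08) and FLS1, flavonol synthase, by 1.75 ± 0.12 (adjusted p = 9.32e-11). CHI and CHIL fell by 0.86 and 0.96. The anthocyanin repressor MYBL2 rose by 1.70 ± 0.23 (adjusted p = 2.81e-06). The activator PAP1 and the enzyme DFR rose by 1.15 ± 0.33 (adjusted p = 0.0064) and 0.91 ± 0.28 (adjusted p = 0.00984), but PAP1 did not pass without the unnumbered WT 0 h library (adjusted p = 0.0891). DFR did not pass without either WT 0 h library or without WT 72 h replicate 2, with adjusted p of up to 0.0834. Over 18 tested genes 3 rose, 5 fell and 10 did not pass, where 24.7% of all genes tested rose and 23.2% fell, and without the unnumbered WT 0 h library 1 rose. F3H had 0 counts in all libraries. The annotated antisense gene AT3G51238 covers nearly all of it, and the counting left out fragments that fall on more than 1 gene.

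Root hair genes rose throughout the list. All 12 tested members were higher at 72 h, where 24.7% of all genes tested were, with a median of 1.0. Without WT 72 h replicate 3, 9 of the 12 passed, and without replicate 1 or replicate 2, 11 did. The summed level of the 12 was 483, 401 and 453 FPKM at 72 h against 165 and 175 FPKM at 0 h. PRP3, a cell wall protein of root hairs, was at 245, 194 and 209 FPKM at 72 h against 64.1 and 64.6 FPKM at 0 h (1.75 ± 0.29, adjusted p = 2.45e-05). LRX1 and LRX2, relatives of the proteins missing in lrx345, rose by 1.44 ± 0.21 and 1.55 ± 0.17, and RHD2, the NADPH oxidase of hair growth, by 0.90 ± 0.10. At 6 h the median of the list had been -1.15, and at 24 h 0.28. Of the endodermal genes of the Casparian strip, 3 of 7 rose and 1 fell, where 24.7% of all genes tested rose and 23.2% fell. The regulator MYB36 rose by 1.07 ± 0.16 (adjusted p = 9.38e-06), and no member fell without WT 0 h replicate 1, WT 72 h replicate 2 or WT 72 h replicate 3. Markers of seed storage and the late embryo had a summed level of 15.7, 10.3 and 7.48 FPKM at 72 h against 1.29 and 1.17 FPKM at 0 h. Of the 12 members, 5 were tested and 2 rose, EM1 and the 2S albumin AT2S1 (log2 fold change 4.60, or 3.82 without WT 72 h replicate 1, 3.79 without WT 0 h replicate 1 and, with 0 counts left at 0 h, at least 5-fold against the floor without the unnumbered WT 0 h library), and no gene of the list tested, EM1 apart, exceeded 3 FPKM. Whether the makeup of the tissue sampled had part in the other results was not tested.

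Of 18 tested alpha-expansins, which loosen cell walls, 7 rose and 3 fell, or 1 fell without the unnumbered WT 0 h library, where 24.7% of all genes tested rose and 23.2% fell. EXPA17 was at 31.1, 33.6 and 36.9 FPKM at 72 h against 5.98 and 4.75 FPKM at 0 h (2.65 ± 0.27, adjusted p = 4.02e-08), and EXPA10 at 115, 94.5 and 105 FPKM against 22.7 and 21.2 FPKM (2.26 ± 0.12, adjusted p = 1.04e-12). EXPA7 and EXPA18, which are made in root hairs, rose by 1.69 each, while EXPA16 fell by 1.11 ± 0.20. Aquaporins rose in 10 of 19 cases and fell in 2, or in 1 without WT 0 h replicate 1. PIP2;1, a water channel of the plasma membrane, was at 951, 1028 and 1076 FPKM at 72 h against 291 and 305 FPKM at 0 h (1.77 ± 0.12, adjusted p = 4.44e-11), and the tonoplast channel TIP1;1 at 775, 884 and 1017 FPKM against 489 and 499.7 FPKM (0.85 ± 0.14, adjusted p = 3.06e-05). At 24 h PIP2;1 had stood 0.07 and TIP1;1 -0.63 from 0 h. Of the 19 aquaporins, 16 were higher at 72 h than at 24 h, where 20.7% of all genes tested were.

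Of the genes of suberin, a barrier polymer of the root, 5 of 17 rose, where 24.7% of all genes tested rose. None rose more than 2-fold, but 1 did without WT 72 h replicate 1. Without WT 72 h replicate 2, 4 rose. The synthesis genes GPAT5 and CYP86A1 did not pass without WT 0 h replicate 1, with log2 fold changes of 0.6 and 0.42. The median was 0.21, after 2.24 at 6 h and 1.01 at 24 h. The regulator MYB93 rose by 0.99 ± 0.22 (adjusted p = 0.000805) and the elongase KCS2 by 0.97 ± 0.18 (adjusted p = 0.000121). Aliphatic glucosinolate genes, which make defence compounds from methionine, rose in 12 of 17 cases and fell in none. The regulators parted: MYB29 was at 18.4, 23.2 and 21.3 FPKM at 72 h against 4.95 and 4.89 FPKM at 0 h (2.09 ± 0.16, adjusted p = 3.06e-10) and MYB76 rose by 2.24 ± 0.41, whereas MYB28 had a log2 fold change of -0.39 (adjusted p = 0.0633) and passed without WT 72 h replicate 2 (adjusted p = 0.0351). MAM1, which lengthens the carbon chain, rose by 1.12 ± 0.10 (adjusted p = 8.41e-09).

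Markers of plant age were examined because the 72 h seedlings may have been older. SPL4, which rises as plants leave the juvenile phase, was at 9.47, 7.53 and 8.05 FPKM at 72 h against 2.01 and 1.64 FPKM at 0 h (2.19 ± 0.24, adjusted p = 1.03e-07), and SPL5 rose by 1.38 ± 0.39 (adjusted p = 0.00592). SPL5 did not pass without the unnumbered WT 0 h library, which left 1 risen gene of the 7 tested instead of 3. Over all genes tested 24.7% rose. The third risen gene, SOC1 (0.28), did not pass without WT 72 h replicate 1 (adjusted p = 0.0899) or replicate 2 (adjusted p = 0.11). Nor did SOC1 pass without WT 0 h replicate 1 (log2 fold change 0.26) or without the unnumbered WT 0 h library (0.31). SPL9, SPL15, FUL and AGL24 had log2 fold changes between -0.56 and 0.23 and did not pass. SPL4 had already reached 1.94 over 0 h at 24 h.

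Set against the earlier times, 4525 genes (20.7%) were higher and 4272 (19.6%) lower at 72 h than at 24 h, and 4822 (22.1%) were higher and 4411 (20.21%) lower at 72 h than at 6 h. With a fold change above 2, 1382 (6.33%) were higher and 590 (2.7%) lower than at 24 h, and 2000 (9.16%) and 1022 (4.68%) than at 6 h. Of the osmotic and ABA-responsive genes, 18 of 20 were lower at 72 h than at 6 h and none was higher, and 8 were lower and 5 higher than at 24 h. Root hair genes were higher at 72 h than at 6 h in 12 of 12 cases and than at 24 h in 11 of 12. For salicylic acid genes 11 of 18 were higher at 72 h than at 24 h, and for senescence genes 16 of 23.

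**Figure D5:**
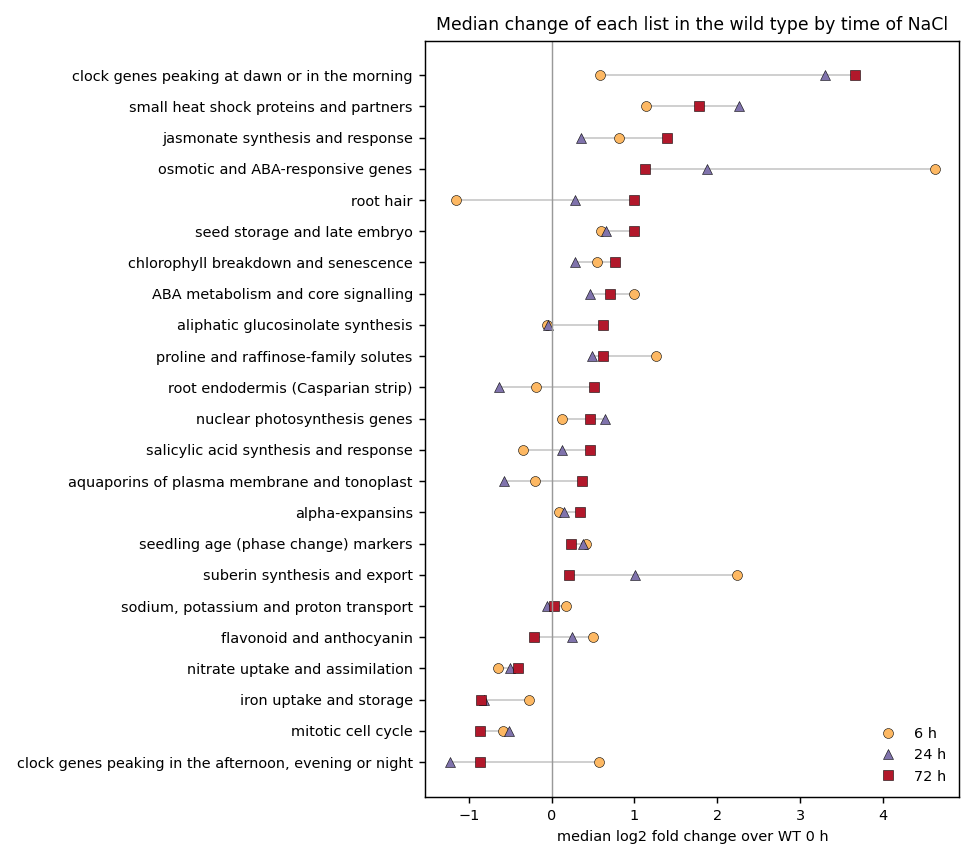
Median log2 fold change over WT 0 h (x axis) of each of 23 gene lists (rows) in WT seedlings at 6 h (circles), 24 h (triangles) and 72 h (squares) of NaCl, all against the same 2 WT 0 h libraries. The osmotic and ABA-responsive list stands at 4.63 at 6 h, 1.88 at 24 h and 1.13 at 72 h, while the root hair list stands at -1.15, 0.28 and 1.0.

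The change between 0 h and 72 h differed between genotypes for many genes. The lrx345 change minus the WT change was positive for 3336 genes (15.3%) and negative for 3686 (16.9%) of those tested at an adjusted p under 0.05, and exceeded 2-fold for 1840 (8.43%) and 1487 (6.81%). All 17 aliphatic glucosinolate genes had a negative difference, as had 27 of 33 photosynthesis genes, 21 of 28 mitotic genes and 14 of 18 alpha-expansins. The osmotic and ABA-responsive list had 10 positive and 1 negative difference, among them RD29B with 5.14 (adjusted p = 0.0139) and RD29A with 3.72 (adjusted p = 2.14e-09). RD29B was at 58.8 ± 11.7 FPKM in lrx345 at 72 h and 3.43 ± 1.1 FPKM in WT at 72 h (SD, n = 3 each). The morning clock genes had 2 positive and 2 negative differences among 9, and CCA1 was at 90.7 ± 2.13 FPKM in lrx345 at 72 h and 94.5 ± 3.92 FPKM in WT at 72 h (SD, n = 3 each). The afternoon and evening clock list had 9 positive and 0 negative differences among 10. Its median log2 fold change at 72 h over 0 h was -0.07 in lrx345 and -0.86 in WT.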

How the data were processed

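RNA-seq of Arabidopsis seedlings was analysed from the deposited table of raw counts per gene, which the authors made by aligning paired reads to TAIR10 with TopHat2 and counting fragments on exons with featureCounts 1.4.6, without strand and without fragments that map to several places or genes. FastQC is also named in the submitters' processing notes. The deposited counts were not normalized. Genes near identical in sequence, overlapping genes and antisense pairs are therefore uncertain.

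All 22 libraries were fitted in one model of 8 groups with edgeR 4.0.16 (R 4.3.3) after TMM scaling and filterByExpr, which kept 21831 genes, and the quasi-likelihood test was adjusted by Benjamini-Hochberg over these. The authors' test works on reads and was not run. Standard errors were derived from the F statistic. FPKM were computed from the counts, the TMM-scaled totals and the exon length. Totals are given in the report. Tables and figures used Python 3.11.15 with pandas 2.3.3 and matplotlib 3.10.9. Simulated data for WT 72 h against WT 0 h held 21198 genes, with 100 changed by 1.5 and 100 by 3 on the log2 scale. Of these, edgeR recovered 99% and 100%, with 4.33% of its calls false. For DESeq2 9.13% of calls were false. In the data 47.8% of genes tested were called, a far larger share than was changed in the simulation. The simulated rates therefore cannot be carried over to this comparison.

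The methods describe biological replicates, whose separate origin the labels do not detail. One WT 0 h library has the number 3 in its table column, where the labels of the group give 1 and 2, so its number was not used and it is called unnumbered. The genes named were the 10 risen and 10 fallen with the largest fold change whose groups did not overlap and whose counts averaged 50 or more, and from 23 lists (431 symbols, 12 without an identifier) the members that changed most and those whose role is explained. COR15A, COR15B and NCED3 were named for their role. Members and lists were chosen with earlier results of these data known. Symbols without an identifier were not examined, and the other untested members had too few counts. Intervals are exact 95% intervals for counting error only, as is the floor of 3 counts per library.

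Promoters are the 250 bases before the gene start, from the RefSeq genome. Of 308558 exon bounds in the count table, 89.6% were in the RefSeq annotation, and 97.9% of 120747 gaps between exons were bounded by GT and AG. Alternatives were DESeq2 1.42.0, upper-quartile scaling, other filters, other sets of libraries, each library left out, a replicate block and a fold threshold of 2.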

Additional observations from a re-analysis of the deposited data

Results flagged for a closer look

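Of the 20 genes with the largest changes, 6 had a change between 0 h and 72 h that differed between genotypes in edgeR's quasi-likelihood test of the interaction, by more than 2-fold. The values below are the lrx345 change minus the WT change on the log2 scale. NATA1 differed by -6.80 (adjusted p = 3.92e-11), and its level in lrx345 averaged 389 FPKM already at 0 h. AT1G73120 differed by 1.88 (adjusted p = 0.00723), AT1G07050 by 1.71 (adjusted p = 0.0177), GPT2 by 1.56 (adjusted p = 2.78e-05) and ALMT1 by 1.77 (adjusted p = 0.00128), all of which fell in WT. AT5G62360, which also fell in WT, differed by -1.65 (adjusted p = 0.0213). What made these genes differ between genotypes was not tested.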

How the results depend on the processing

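No gene past the threshold that the text names changed direction under any alternative run. Genes named that did not pass, with log2 fold changes near 0, changed sign under some, among them COR15A (-0.26 without the unnumbered WT 0 h library) and NCED3 (-0.04 without WT 72 h replicate 2). Of 114 counts of called genes, 108 stayed within 1.5 times the value given in the report. The other 6 are counts with a fold change above 2 as well, which call fewer genes by construction: 2089 higher and 1105 lower against 0 h, 1382 and 590 against 24 h, and 2000 and 1022 against 6 h. Leaving out each library in turn gave 4093 to 5016 higher and 3834 to 4715 lower genes against 0 h. DESeq2 called 5663 higher and 4423 lower genes. Upper-quartile scaling called 4801 and 5768, which lowered the share of higher genes among calls to 45.4% from 51.6% and the median of all genes by 0.06 on the log2 scale, so that lower genes outnumbered higher ones. Of 2687 values of named genes under an alternative, 2592 kept their side of the threshold, 90 lost it and 5, all of MYB28, passed it. Of 598 list counts, 62 moved by more than 1.5 times.

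With a replicate block, 4407 genes were higher and 4114 lower against 24 h, and 4676 and 4266 against 6 h. The unnumbered WT 0 h library was alone in its block. In comparisons with WT 0 h the run thus left that library out, besides adjusting for the numbers. The log2 fold change with the block and without that library was 3.86 and 3.84 for RD29B, 2.95 and 2.91 for GolS4, and 1.06 and 1.23 for GolS3. With the block, HKT1 (adjusted p = 0.0532), PAP1 (0.0565), DFR (0.0599), SPL5 (0.165), GolS3 (0.221), FIT (0.0911), PYL8 (0.0549) and ICS1 (0.0741) did not pass, and 2 transport genes fell. Only number 1 matches a label at both times, and the deviations of these libraries correlated with r = 0.0077. Taking the column's number 3 for the unnumbered library gives 0.0432 with WT 72 h replicate 3. For numbers 1, 2 and 3, WT 72 h correlated with WT 6 h at 0.186, 0.045 and 0.126 and with WT 24 h at 0.0385, -0.0535 and 0.0731. Unlike numbers gave -0.144 to 0.0346 with WT 6 h and -0.0768 to 0.0419 with WT 24 h. At 6 h the like-numbered WT pair was thus the highest for each WT 72 h library. With lrx345, like numbers 1, 2 and 3 gave 0.0799, 0.0271 and 0.0837 at 6 h and 0.102, 0.044 and 0.0705 at 24 h. At both times the like-numbered pair was again the highest for each WT 72 h library. With lrx345 at 72 h like numbers gave -0.115, 0.0395 and -0.101, and at 0 h numbers 1 and 2 gave -0.0846 and -0.0548. As some like-numbered pairs of each comparison were under 0.1, the main model did not pair the libraries. With 2 libraries at 0 h and few counts for many stress genes before treatment, counting error limits how precisely the largest increases are known.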
